A study of Mus musculus with 4 samples.

Results

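Lipid flippase and scramblase genes were examined in activated mouse CD4+ T cells with and without Setd2, the enzyme that trimethylates lysine 36 of histone H3. The genes were chosen by symbol: the P4-ATPases (Atp8a, Atp8b, Atp9, Atp10 and Atp11 genes), the CDC50 subunits (Tmem30 genes), the anoctamins (Ano genes), the phospholipid scramblase family (Plscr genes) and the XK-related family (Xkr genes). This gave 37 of the 18560 genes in the deposited table, of which 34 had at least 1 count in at least 1 library and 20 passed the filter on low counts and were tested. The wild type group held replicates 1 and 6 of C57BL/6 spleen CD4+ T cells, and the knockout group held replicates 9 and 12, with the genotype labelled Setd2-CD4 cre. Both groups were naive cells stimulated through CD3 and CD28 without polarising cytokines named in the labels (Th0 cells). The stimulation time is 2 days in the series design and 3 days in the treatment labels, and the titles carry the number 48. Cre under Cd4 control is active from the thymic stage at which cells carry both CD4 and CD8, so in such animals CD8 T cells also lose the gene. The sources used here do not say whether the wild type animals carried Cre or floxed alleles, how old they were, or whether replicates came from separate animals. The p-values therefore rest only on the spread between these 4 libraries, partly pooled over genes, and that spread may be technical.

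A cell membrane holds different lipids in its 2 leaflets, and phosphatidylserine is kept on the cytosolic side. P4-ATPases use ATP to flip phosphatidylserine, phosphatidylethanolamine or phosphatidylcholine toward the cytosolic leaflet, and most of them need a CDC50 subunit to leave the endoplasmic reticulum. Scramblases let lipids move both ways without ATP, among them Ano6, which opens with calcium, and Xkr8, which is cut by caspases in dying cells. Phosphatidylserine that reaches the outside marks dying cells for uptake, and living T cells also expose it for a time when they are stimulated.

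The libraries held between 17284613 and 20418766 counts. Levels are given as CPM, counts scaled to a common library size with TMM factors, which allows a gene to be compared between libraries, and as FPKM, the deposited values scaled by gene length, which allow genes to be compared within a library. Each log2 fold change sets knockout against wild type and comes with its standard error (SE), and a gene was called when its edgeR p adjusted over all 12816 genes tested was under 0.05. Pairs of values are given in the order wild type replicates 1 and 6, then knockout replicates 9 and 12. All 6 T cell markers were detected, summing to 2272 and 2543 CPM without and 2001 and 1861 CPM with the knockout. Markers of B cells were also present (5 of 5 tested, summing to 262.4 and 179.0 against 192.1 and 335.5 CPM), and the 2 CD8 markers summed to 260.0 and 330.4 against 432.0 and 323.1 CPM. Markers of NK cells, platelets and red cells summed to less than 20 CPM in each library. In such mixed RNA, fewer cells of a type and less RNA per cell cannot be told apart. Setd2 had 157 and 174 CPM in the wild type pair, against 127 and 113 in the knockout pair (log2 -0.47, SE 0.21, edgeR adjusted p 0.421), a count over all exons that does not check the deleted part. With the trend on gene length removed (described below) the log2 value of Setd2 was -0.01.

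Among the 20 tested genes, edgeR called 0 higher and 0 lower in knockout libraries, where 0.0078% of all genes tested were called higher and 0% lower. At an unadjusted edgeR p under 0.05 there were 1 higher (Plscr1) and 2 lower (Atp11b and Xkr5), that is 5% and 10% of the 20, against 6.23% and 5.73% of all genes tested. DESeq2 called 1 of the 20 higher, Plscr1, and 0 lower, against 0.687% and 0.757% of all genes. The knockout pair lay above the wild type pair for 3 of the 20 genes (15%, against 25.4% of all genes) and below them for 10 (50%, against 24.3%). The median log2 fold change was -0.19 for the 20 genes and -0.0024 for all genes tested. For the 20 genes it was -0.09 when wild type replicate 6 was left out and -0.28 when it was wild type replicate 1. These figures cover only the genes that passed the filter, and they describe the set without testing it. Ano7, among the genes that lay below, reached the minimum count of 10 only in the wild type libraries (14 and 11 counts, against 4 and 9). It thus entered the set through the group where it was higher, and its place below adds no support.

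**Figure D1:**
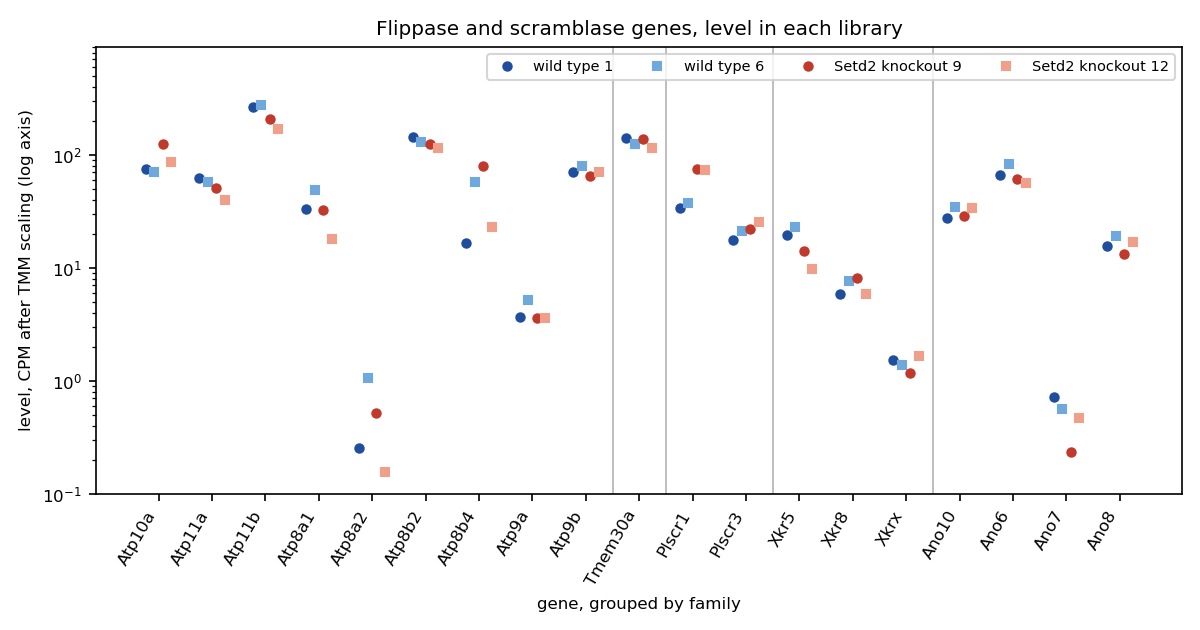
Level of tested flippase and scramblase genes in each library (y axis, CPM after TMM scaling, log axis; genes on the x axis, grouped by family and separated by grey lines). Each point is 1 library, blue for wild type and red for knockout; Plscr1 shows both knockout libraries well above both wild type libraries, and Atp8b4 shows wild type replicate 6 and knockout replicate 9 above the other 2.

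Plscr1 was the member with the smallest p. It encodes a palmitoylated, calcium-binding membrane protein that gave the scramblase family its name, is induced by interferons, and has a debated part in moving lipids. Plscr1 (gene 22038, GRCm38.p6 chromosome 9, 92250194 to 92272561) had 33.5 and 37.6 CPM in the wild type pair, against 75.0 and 73.4 in the knockout pair. The replicates of each group were close together (35.6 ± 2.94 against 74.2 ± 1.09 CPM, SD, n = 2 per group) and the groups did not overlap. The 2.09-fold difference had a log2 value of 1.06 (SE 0.21) and an edgeR adjusted p of 0.261 (unadjusted 0.00102), so it did not pass. Across all genes tested, 47 had a smaller edgeR p. DESeq2 on the same counts gave an adjusted p of 0.00516, and edgeR without the filter on low counts gave 0.046. With any single library left out the log2 value stayed between 0.98 and 1.15. Over the 14 alternatives the adjusted p of Plscr1 ran from 0.00516 in DESeq2 to 0.962 without knockout replicate 12. The expected counts of Plscr1 were whole numbers in every library (within 0.004).

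Per length, Plscr1 held a different place among the 20 genes in the 2 genotypes. It was the fourth most abundant in both wild type libraries, at 19.5 and 23.3 FPKM, and the most abundant in both knockout libraries, at 43.9 and 41.1 FPKM. Atp11b, the leader in wild type at 54.5 and 60.2 FPKM, stood at 42.3 and 32.7 FPKM in the knockout libraries. The ratio of Plscr1 to Atp11b was thus 0.358 and 0.387 in wild type and 1.04 and 1.26 in knockout libraries. FPKM does not take out the trend of fold changes on gene length (described below), and Plscr1 is the shorter of these 2 genes. With that trend removed the log2 fold change of Plscr1 went from 1.06 to 0.88 and that of Atp11b from -0.54 to -0.33. The ranks and the ratio were not computed with the trend removed.

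**Figure D2:**
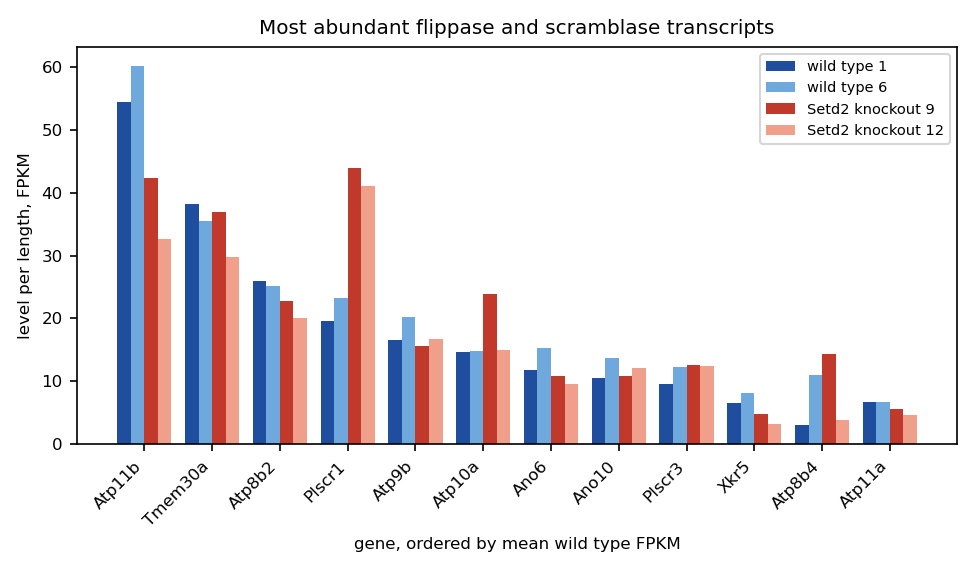
Level per length (y axis, deposited FPKM) of the 12 flippase and scramblase genes with the highest wild type mean, in that order on the x axis. Each bar is 1 library; Atp11b is the tallest in both wild type libraries and Plscr1 in both knockout libraries.

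Plscr1 lies in a group of related genes on chromosome 9 with Plscr5 before it and Plscr2 and Plscr4 after it. The 3 relatives had at most 7 counts in any library and were not tested. Plscr2 (92275602 to 92297752), the nearest relative, had 1 and 1 counts in wild type and 6 and 3 in knockout libraries, too few to compare. The next tested gene along the chromosome, Plod2, stood at 11.5 and 7.54 against 14.3 and 10.4 CPM, with overlapping groups. Plscr3 (gene 70310, chromosome 11, 69846372 to 69852058), a family member found at mitochondria, had 17.7 and 21.1 CPM in the wild type pair, against 22.2 and 25.5 in the knockout pair. The groups did not overlap, but the gap was small (log2 0.30, SE 0.23, edgeR adjusted p 0.568). By the GENCODE annotation 28.3% of the exon bases of Plscr3 overlap the opposite-strand gene Tnk1, and no source used here says that counting used strand.

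Start-site sequences of the 4 genes with the smallest p were looked up in a table of RefSeq promoters (GRCm38.p6), which had entries for Plscr1, Atp11b and Atp10a. They are shown to set the interferon-inducible scramblase gene beside the P4-ATPase genes with the smallest p among those with a negative and those with a positive log2 fold change, neither of which passed. The 250 bases before each RefSeq start were searched on both strands for the GC box GGGCGG, the STAT-type site TTCNNNGAA and GAAANNGAA, the core of the interferon-stimulated response element. These motifs were found in 32.7%, 7.02% and 7.13% of all 32851 windows of that length. Counted by gene, 10 of the 14 tested members with an entry (71.4%) held the GC box in at least 1 window, against 61.7% of all tested genes with an entry. The STAT-type site was held by 1 member (Plscr1), against 7.33% of those genes, and the interferon core by 0, against 7.58%. In capitals below are the STAT-type match of Plscr1, which starts 90 bases before the RefSeq start, and the GC boxes of the other genes, on either strand. Plscr1 is given as 25 bases (chr9:92250096-92250120, plus strand), since GENCODE places a longer first exon over this window. Atp11b is given as chr3:35753813-35754043, ending before the first base of the RefSeq gene, and Atp10a as chr7:58657952-58658201, both on the plus strand. The Atp10a stretch precedes an internal RefSeq start and lies inside the gene span given further on, in an intron of a GENCODE transcript that begins earlier.
Plscr1: aaagaaagTTCCGAGAAgaggccac
Atp11b: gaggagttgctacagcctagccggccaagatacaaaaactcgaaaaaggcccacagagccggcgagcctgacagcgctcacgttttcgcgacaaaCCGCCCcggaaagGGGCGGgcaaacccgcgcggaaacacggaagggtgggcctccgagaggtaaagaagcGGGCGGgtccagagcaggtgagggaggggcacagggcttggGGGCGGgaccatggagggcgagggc
Atp10a: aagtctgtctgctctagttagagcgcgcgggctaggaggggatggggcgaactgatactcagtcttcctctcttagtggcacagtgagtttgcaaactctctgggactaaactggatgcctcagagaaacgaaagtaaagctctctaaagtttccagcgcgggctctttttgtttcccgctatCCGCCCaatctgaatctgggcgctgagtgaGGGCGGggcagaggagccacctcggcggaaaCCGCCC
The printed stretch of Atp11b held 4 GC boxes (6 in its full window) and that of Atp10a held 3. The full window of Plscr1 held 1 GC box, which starts 6 bases before the RefSeq start, outside the printed stretch. Over the full window the G and C content was 67.6% for Atp11b, 55.6% for Atp10a and 47.2% for Plscr1, against a median of 52.4% for all windows. A match is only a match of letters and says nothing of binding.

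Of the 14 P4-ATPase genes listed 10 were tested, with 0 called in either direction. Of the 10, 8 had a negative log2 fold change (median -0.35), and 7 lay below both wild type libraries in both knockout libraries (70.0%, against 24.3% of all genes tested and 40.7% of those with an effective length of 4 to 8 kb). Among the 7, the lowest wild type and highest knockout library were nearly level for Atp8a1 (33.1 against 32.6 CPM) and Atp9a (3.66 against 3.61 CPM). Atp11b (gene 76295, chromosome 3, 35754044 to 35856276), a flippase of endosomal membranes, had 265 and 278 CPM in the wild type pair, against 207 and 168 in the knockout pair. The groups (272 ± 9.34 against 187 ± 27.7 CPM, SD, n = 2 per group) did not overlap, and replicate 12 was the lowest. Its log2 fold change was -0.54 (SE 0.22, edgeR adjusted p 0.413, unadjusted 0.0387).

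Atp11a encodes a phosphatidylserine flippase of the plasma membrane. Atp11a (gene 50770, chromosome 8, 12757016 to 12868728) had 62.6 and 57.7 CPM in the wild type pair, against 50.5 and 40.0 in the knockout pair (log2 -0.41, SE 0.22, edgeR adjusted p 0.451). The groups did not overlap and replicate 12 was again the lowest, and the difference did not pass. Atp11b made up 41.1% and 39.3% of the summed P4-ATPase FPKM in wild type and 31.4% and 32.9% in knockout libraries, and the groups did not overlap. The share of Atp10a was 11.1% and 9.70% against 17.7% and 15.1%, while that of Atp8b2 overlapped (19.6% and 16.4% against 16.8% and 20.1%). Atp10a itself had 14.67 and 14.84 FPKM against 23.89 and 14.99. In CPM, the scale for comparing libraries, it had 75.3 and 70.1 against 125 and 86.8, so knockout replicate 12 was above both wild type libraries. The P4-ATPase sum was 132.7 and 153.0 against 134.7 and 99.43 FPKM, lowest in knockout replicate 12. The FPKM of all genes summed to between 492817 and 576341 per library, so these sums are not scaled for comparison between libraries.

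Atp8a1 (gene 11980, chromosome 5, 67618139 to 67847484), a flippase of phosphatidylserine and phosphatidylethanolamine in recycling endosomes, had 33.1 and 48.9 CPM in the wild type pair, against 32.6 and 17.97 in the knockout pair. The lowest wild type and the highest knockout library were nearly level, and the log2 value of -0.70 (SE 0.33, edgeR adjusted p 0.424) was -0.33 without replicate 12 and -1.17 without replicate 9. Atp8b2, which flips phosphatidylcholine at the plasma membrane and was the second most abundant P4-ATPase in wild type libraries by FPKM, had 142 and 131 CPM, and 124 and 115 with the knockout. That is a log2 difference of -0.19 (SE 0.21), less than 1 SE. Atp9b and Atp9a, the P4-ATPases that work without a CDC50 subunit, stood at 70.7 and 80.0 against 64.5 and 70.5 CPM (log2 -0.16, SE 0.21) and at 3.66 and 5.16 against 3.60 and 3.61 CPM (-0.29, SE 0.42). Atp8a2 was close to the detection limit, with at most 1.06 CPM in a library (log2 -0.96, SE 1.04), and 15.6% of its exon bases overlap other genes.

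Atp10a (gene 11982, chromosome 7, 58656142 to 58830244), another phosphatidylcholine flippase, went the other way from most P4-ATPases. It had 75.3 and 70.1 CPM in the wild type pair, against 125 and 86.8 in the knockout pair, with replicate 9 far above the rest and no overlap between groups. The log2 fold change was 0.54 (SE 0.24, edgeR adjusted p 0.417). It was 0.79 without replicate 12 and 0.28 without replicate 9, so the size rested on replicate 9.

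Atp8b4 (gene 241633, chromosome 2, 126320973 to 126500669) varied within the groups rather than between them. It had 16.5 and 57.4 CPM in the wild type pair, against 79.6 and 22.8 in the knockout pair. The high pair was wild type replicate 6 and knockout replicate 9, and the groups overlapped (log2 0.47, SE 0.81, edgeR adjusted p 0.812). Leaving out knockout replicate 9 gave -0.68, leaving out wild type replicate 1 gave -0.17, and leaving out wild type replicate 6 gave 1.63. Summed NK cell markers (2.44 and 4.96 against 6.56 and 3.56 CPM, with 3 of 4 tested) and platelet markers (1.63 and 5.92 against 5.40 and 3.46 CPM, with 2 of 5 tested) had the same high pair. So did the CD8 markers (260.0 and 330.4 against 432.0 and 323.1 CPM) and the number of genes with a count (15349 and 15853 against 15849 and 15319). For the CD8 markers the gap was narrow (330.4 against 323.1 CPM). B cell markers were lowest in that pair. The other marker sums did not have the same high pair. These were T cells (2272 and 2543 against 2001 and 1861 CPM), myeloid cells (63.94 and 68.79 against 65.56 and 79.04 CPM) and red cells (6.10 and 19.88 against 2.32 and 5.16 CPM). The part of any of these in the result was not tested.

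The CDC50 subunit that most P4-ATPases share overlapped between the groups. Tmem30a (gene 69981, chromosome 9, 79768941 to 79793430) had 141 and 124 CPM in the wild type pair, against 137 and 116 in the knockout pair, with overlapping groups (log2 -0.07, SE 0.22, edgeR adjusted p 0.901). Its direction was positive without wild type replicate 1, without knockout replicate 12 and with the length trend removed (described below). The summed FPKM of the P4-ATPases was 3.48 and 4.31 times that of Tmem30a in wild type, and 3.65 and 3.35 times in knockout libraries, again overlapping. Tmem30b and Tmem30c, the other CDC50 genes, had at most 10 counts in a library.

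Of the 6 XK-related genes 3 were tested. Xkr5 (gene 319581, chromosome 8, 18924152 to 18951105) had 19.6 and 23.0 CPM in the wild type pair, against 14.0 and 9.76 in the knockout pair. The groups did not overlap, and the ratio was 0.558 (log2 -0.84, SE 0.28, edgeR adjusted p 0.405, unadjusted 0.0168). With a library left out the log2 value ran from -1.10 to -0.60. Xkr8, the scramblase that caspases activate, had 5.90 and 7.59 CPM, and 8.12 and 5.83 with the knockout, with overlapping groups (log2 0.05, SE 0.35). Its direction was negative with library size alone as scaling, and with either wild type replicate 1 or knockout replicate 9 left out. Xkrx was under 2 CPM in each library (log2 -0.04, SE 0.61) and positive without wild type replicate 1 or knockout replicate 9. The expected counts of Xkr8 and Xkrx were not whole in any library, and neither were those of Atp10a, Atp9a and Ano8. Those of Plscr3 and Ano10 were not whole in 2 libraries each, and those of Atp8b4 in 1. The counting thus divided some reads of these genes with other sequences, and their levels are less certain.

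Of the 9 anoctamin genes 4 were tested. Ano6 (gene 105722, chromosome 15, 95790843 to 95975472), the calcium-activated scramblase of the plasma membrane, had 66.2 and 82.6 CPM in the wild type pair, against 60.5 and 56.8 in the knockout pair. The groups did not overlap, with wild type replicate 6 the highest, and the difference did not pass (log2 -0.34, SE 0.22, edgeR adjusted p 0.495). Ano10 and Ano8, found on inner membranes, overlapped between groups. Ano10 stood at 27.8 and 34.5 against 28.9 and 33.5 CPM, a log2 difference of 0.00 (SE 0.23), whose sign turned with the scaling. Ano8 stood at 15.5 and 19.0 against 13.3 and 17.0 CPM (log2 -0.18, SE 0.26). Ano7 was under 1 CPM in each library (log2 -0.84, SE 0.85). It passed the filter only through its wild type counts (14 and 11, against 4 and 9 in knockout libraries), so its direction cannot be read.

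A further 14 members had counts but were not tested, with at most 12 counts and 0.607 CPM in any library. These were Atp8b1, Atp8b3, Atp8b5, Atp10b, Tmem30b, Tmem30c, Plscr2, Plscr4, Plscr5, Xkr4, Xkr6, Ano1, Ano3 and Ano5. The remaining 3 members had no count in any library. No difference between the groups could be read from genes at these counts.

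Over all genes, log2 fold changes were lower the longer the gene, and the P4-ATPase genes are long. Effective length is the length implied by the deposited counts and FPKM. Over all genes tested the median log2 fold change was 0.26 for those under 2 kb (3872 genes), 0.00 from 2 to 4 kb (5334), -0.24 from 4 to 8 kb (3089) and -0.48 over 8 kb (494). Of all genes from 4 to 8 kb, 40.7% lay below in both knockout libraries and 10.4% above. The tested P4-ATPases had a median effective length of 5403 bases, against 2826 bases for all genes tested. Whether this trend belongs to the genotype or to the libraries was not tested, so its removal may also take out differences between the genotypes. With the trend removed from each library, the median of the 20 members went from -0.19 to -0.04. That of the P4-ATPases went from -0.35 to -0.08, and the value of Setd2 itself from -0.47 to -0.01. Atp11a went to 0.05 (SE 0.18), Atp8b2 to 0.07 (SE 0.17), Atp9b to 0.00 (SE 0.18) and Ano6 to -0.07 (SE 0.18). Plscr1 (0.88, SE 0.18, edgeR adjusted p 0.283), Xkr5 (-0.84, SE 0.25, adjusted p 0.374) and Atp11b (-0.33, SE 0.15, adjusted p 0.465) kept their direction. So did, among others, Atp8a1 (-0.36, SE 0.24), Atp9a (-0.24, SE 0.39), Atp8a2 (-0.75, SE 1.01), Atp8b4 (0.67, SE 0.69) and Ano7 (-0.73, SE 0.82), each within 2 SE of 0. Atp10a became larger, at 0.76 (SE 0.17, edgeR adjusted p 0.304). The effective lengths were 1703 bases for Plscr1, 2968 for Xkr5, 4867 for Atp11b and 5172 for Atp10a.

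**Figure D3:**
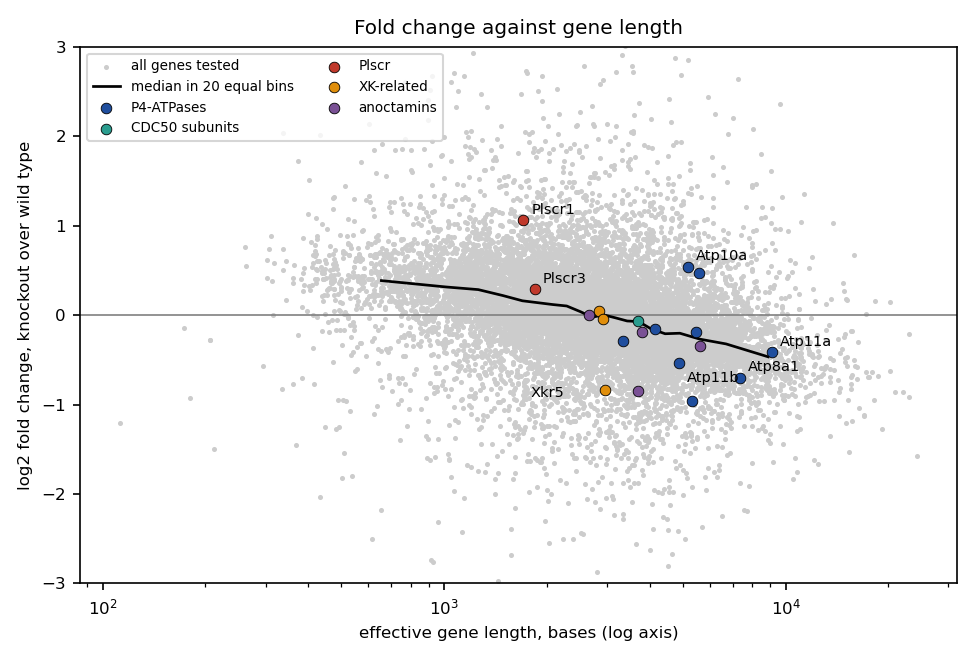
Log2 fold change (y axis, knockout over wild type) against effective gene length (x axis, bases, log axis) for all genes tested in grey, with their median in 20 equal bins as a black line and the members in colour by family. The 44 genes beyond 3 in either direction are outside the axis. Of the P4-ATPases shown, Atp11a, Atp8b2 and Atp9b lie near the falling median, and Atp11b, Atp8a1, Atp8a2 and Atp9a lie below it. Plscr1, Atp10a and Atp8b4 lie above it.

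**Figure D4:**
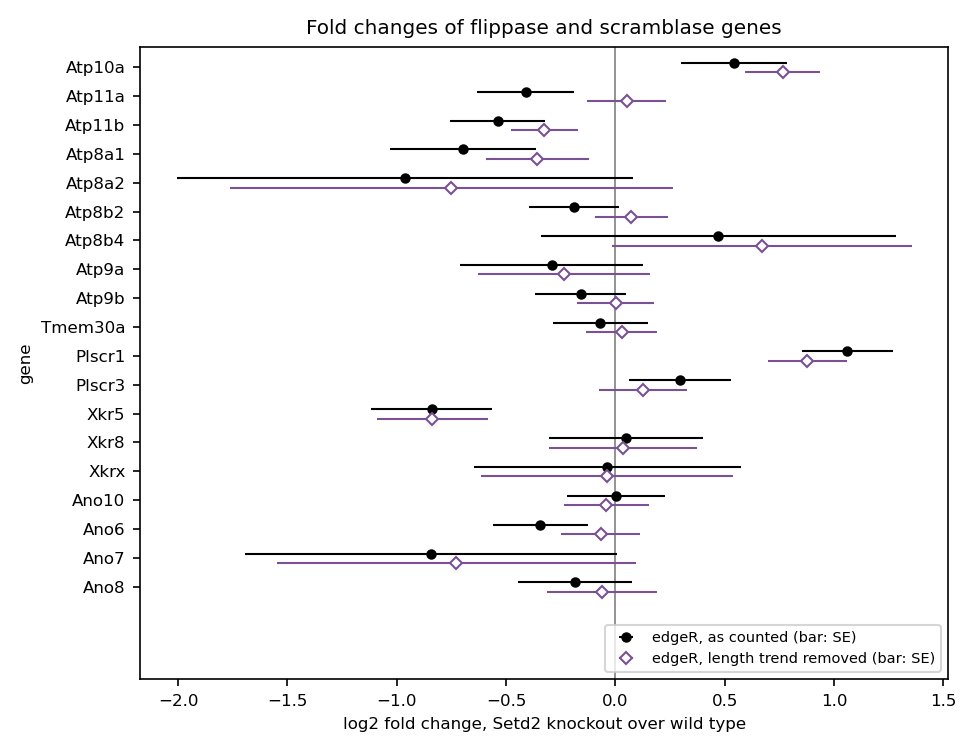
Log2 fold change (x axis, knockout over wild type, bars are 1 SE) of tested members (y axis), as counted in black and with the length trend removed in purple. Plscr1, Atp10a, Xkr5 and Atp11b differ from 0 by more than 2 SE in both; Atp11a, Atp8b2 and Atp9b move to about 0.

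Genes that act beside the flippases and scramblases were read from lists, and edgeR called 0 genes of the 7 lists in either direction. Of the 10 tested genes that bring calcium or ATP signals to scramblases, 0 were higher and 3 lower at an unadjusted edgeR p under 0.05, where 6.23% of all genes tested were higher and 5.73% lower. With so few genes a list, this and the counts below are descriptions beside those shares. P2rx7, an ATP-gated channel whose opening makes T cells expose phosphatidylserine, had 34.1 and 29.4 CPM in the wild type pair, against 4.29 and 5.68 in the knockout pair (log2 -2.67, SE 0.27, edgeR adjusted p 0.0671), and DESeq2 called it lower. The calcium release channel genes Itpr3 (log2 -0.57, SE 0.21) and Itpr2 (-0.58, SE 0.23) were the other 2. Both are long genes, and with the length trend removed they stood at -0.08 and -0.04, while P2rx7 stood at -2.45.

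Of the 6 tested Xkr8 partners and caspases, 1 was higher and 0 were lower by unadjusted p (6.23% and 5.73% of all genes). Bsg, which encodes basigin, a chaperone of Xkr8, stood at 312 and 207 against 367 and 467 CPM (log2 0.69, SE 0.26, edgeR adjusted p 0.413), and at log2 0.45 with the length trend removed. Of the 9 tested ABC transporters that move lipids outward, 1 was higher and 0 lower, against the same shares. Abcb1b, which encodes a P-glycoprotein, stood at 25.1 and 23.0 against 47.0 and 39.2 CPM (log2 0.84, SE 0.22, edgeR adjusted p 0.349), and the groups did not overlap. The cholesterol exporter genes Abcg1 (log2 -0.75, SE 0.32) and Abca1 (-0.88, SE 0.52) did not pass at an unadjusted p, and both stood at -0.44 with the length trend removed.

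Of the 9 tested phosphatidylserine receptor and bridging genes, 1 was higher and 0 were lower by unadjusted p (6.23% and 5.73% of all genes). Havcr2, which encodes the receptor TIM-3, had 15.1 and 5.21 CPM, and 32.7 and 28.3 with the knockout (log2 1.59, SE 0.46, edgeR adjusted p 0.386), and DESeq2 called it higher. Mfge8 (log2 0.53, SE 0.24) and Pros1 (-0.55, SE 0.29), which bridge phosphatidylserine to receptors on the eating cell, did not pass. Of 5 phosphatidylserine synthesis and transfer genes and 12 scramblases and lipid bridges of inner membranes, 0 passed at an unadjusted p. In the first of these lists Osbpl5 (log2 -0.51, SE 0.32), Ptdss1 (0.25, SE 0.23) and Osbpl8 (-0.28, SE 0.32) had the smallest p, and in the second Vps13d (-0.57, SE 0.25), Vps13a (-0.63, SE 0.28) and Clptm1l (0.53, SE 0.25). With the length trend removed Osbpl8 turned to 0.04 and Vps13d to 0.14, and Vps13a went to -0.10. Of 15 other tested P-type ATPases, which pump ions and not lipids or belong to related classes, 0 were higher and 2 lower at an unadjusted p, against the same shares. These were the copper pump gene Atp7a (log2 -0.97, SE 0.33) and the plasma membrane calcium pump gene Atp2b1 (-0.65, SE 0.25), while the calcium pump gene Atp2a2 stood at 0.41 (SE 0.23). With the length trend removed Atp7a was at -0.58, Atp2b1 at -0.34 and Atp2a2 at 0.61. The median was -0.11 for these ion pumps and their relatives, as set beside -0.35 for the P4-ATPases, and the difference between them was not tested. With the length trend removed the medians were 0.08 and -0.08. The median of the other P-type ATPases was 0.05 when wild type replicate 1 was left out and -0.34 when it was knockout replicate 9.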

How the data were processed

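RNA-seq was measured in 4 libraries, 2 per genotype. Per the submitters' processing notes the authors used Bowtie2 and RSEM with builds GRCm38.p6 and mm10; no version or setting is stated. The deposited table gives expected counts, which RSEM may split between genes, and a second value per library with no stated unit. It was taken as FPKM made by the authors, because implied over annotated length had a median of 0.997 across 1125 single-transcript genes.

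Libraries held between 17284613 and 20418766 counts. No pair agreed within sampling noise (chi-square per degree of freedom 28.5 to 150.5). The closest pair crossed the genotypes, wild type replicate 1 and knockout replicate 9 (28.5). The wild type pair stood at 42.5 and the knockout pair at 49.1. Expected counts were rounded, filtered with filterByExpr (minimum count of 10, leaving 12816 genes) and scaled by TMM. The 2 genotypes were tested with the robust quasi-likelihood F test of edgeR 4.0.16 (two-sided, R 4.3.3), p-values were adjusted by Benjamini-Hochberg, and 0.05 was the threshold; limma 3.58.1 and DESeq2 1.42.0 were alternatives. SE was taken from the F statistic. The fit had 2 residual degrees of freedom, and the variance of each gene was drawn toward that of other genes (prior degrees of freedom at most 5.741). The scripts were tested on simulated data. A lowess trend of each library on log length (span 0.3, fitted on genes with a mean count of at least 50) was the offset of the length alternative; 27 tested genes without a length got no correction.

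Of the gene IDs, 18424 matched the table of RefSeq genes, with all 37 members; the separate table of RefSeq promoters had 14 of the tested members. Members and gene lists were chosen with earlier results of these data known. The rule for naming took every member with a count, up to 3 genes of smallest p from each list, Setd2 and P2rx7. Some genes the rule names are not reported here, though the counts and medians include them. Plod2 and Tnk1 were added after values were seen. The summed myeloid markers were 63.9 to 79.0 CPM.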

Additional observations from a re-analysis of the deposited data

How the results depend on the processing

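With 2 libraries a group the fit had 2 residual degrees of freedom, and 14 members with a count did not pass the filter and were untested. No paired analysis was possible because the genotypes have no replicate number in common (1 and 6, 9 and 12). In the fits without a library the lone library is assumed to vary like the other group.

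Over all genes, 1 was higher and 0 lower; without the filter there were 48 and 33, with DESeq2 88 and 97, and with a library left out 0 to 98 higher and 0 to 70 lower (98 and 70 when wild type replicate 1 was dropped, 22 and 8 when it was replicate 6). Among members, 1 was higher (Plscr1) without the filter and in DESeq2. With the length trend removed the median was -0.040 for members and -0.084 for P4-ATPases; with a library left out that of members ran from -0.28 to -0.09, and that of P4-ATPases was lowest at -0.61, with knockout replicate 9 dropped, and highest at -0.16, with wild type replicate 6 dropped.

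The sign turned under at least 1 of 14 alternatives for 10 of 20 members. With the length trend removed this held for Atp11a (0.052), Atp8b2 (0.072), Atp9b (0.00097), Tmem30a (0.029) and Ano10 (-0.041). Ano10 was also negative with DESeq2 size factors (-0.00093), upper-quartile factors (-0.022), library size (-0.083), a minimum count of 50 (-0.0101), DESeq2 (-0.00091) and FPKM (-0.065). Xkr8 was -0.029 with library size. With a library left out the ranges were -2.02 to 0.39 for Atp8a2, -0.68 to 1.63 for Atp8b4, -0.17 to 0.05002 for Tmem30a, -0.19 to 0.27 for Xkr8, -0.31 to 0.21 for Xkrx, -0.15 to 0.17 for Ano10 and -0.37 to 0.00069 for Ano8. Why the signs turned was not tested.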

Other observations

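The start-site motifs searched in the promoters were also set beside the fold changes of all tested genes with an entry, with no test. The median log2 fold change was 0.00 for the 751 tested genes with the STAT-type site TTCNNNGAA before a RefSeq start and 0.00 for the 9493 without it. It was -0.02 for the 776 genes with the interferon core GAAANNGAA and 0.00 for the 9468 without it. For the GC box it was 0.01 for 6316 genes with it and -0.02 for 3928 without it. These are descriptions across genes, which are not independent replicates.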
